A study of Mus musculus with 6 samples.

Results

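The 8 genes described here handle the signaling nucleoside adenosine: the receptors *Adora1*, *Adora2a* and *Adora2b*, the ectonucleotidases *Entpd1* and *Nt5e*, the transporter *Slc29a1*, and the enzymes *Ada* and *Adk*. They were taken by symbol from the 26903 genes with a row in any of 6 single-cell RNA sequencing libraries, and all 8 had a row in every library. The set was chosen by earlier results of these data, in which the *Adora1* level in principal cells stood higher in *Prdm16* knockout (KO) than in wild type (WT) mice. The genotype values of *Adora1* are therefore given as a description, with no test.

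The libraries came from the renal cortex of mice aged 9 months, 3 WT and 3 *Prdm16* KO, with 1 mouse in each library. The KO was global, made by CRISPR-Cas9 removal of exon 2, so every cell of these animals carried it, and a change in 1 cell class cannot be told apart from a response to the loss in other cells or organs. The counts are 3' tags, which lie outside the deleted exon. *Prdm16* itself was read at 32.1, 26.7 and 27.1 CPM (UMIs scaled to a fixed library total) in the WT libraries and at 21.2, 25.3 and 23.6 CPM in the KO libraries, and these values do not check the deletion.

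Adenosine is released by cells or formed outside them from ATP, which CD39 (*Entpd1*) degrades to AMP and CD73 (*Nt5e*) converts to adenosine. It acts on G protein-coupled receptors, of which A1 (*Adora1*) couples to inhibitory G proteins and lowers cyclic AMP, and *Adora2a* and *Adora2b* encode the A2 receptors, which raise it. Signaling ends with uptake through the transporter ENT1 (*Slc29a1*) and with phosphorylation by adenosine kinase (*Adk*) or deamination by adenosine deaminase (*Ada*). In the kidney, adenosine is best known for tubuloglomerular feedback, in which a salt signal at the macula densa narrows the afferent arteriole through A1, and it also acts on renin release, tubular transport and inflammation.

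Barcodes with 500 to 60000 unique molecular identifiers (UMIs), 200 to 8000 genes and at most 50% mitochondrial UMIs were kept, which left 14655 WT and 13833 KO cells after doublet removal. Between 3538 and 6276 cells were kept per library, with 22965576 to 35466580 UMIs and a median of 2379 to 3579 UMIs per cell. Clustering gave 29 clusters, of which 24 resembled 16 kidney or immune cell classes by their markers and 5 stayed unnamed. For each class, UMIs were summed per library and scaled to 1000000 UMIs of the class, and this CPM is the level used throughout. WT replicate 2 and KO replicate 1 stand apart. *Xist* was at 297 and 307 CPM in them and at most 0.218 CPM in the other 4, and 4 Y-linked genes together were at 0.0564 and 0.0612 CPM against 109 to 133 CPM, although all 6 mice are labelled male. *Adora1* in principal-like cells and every called class difference of a member or pathway gene are also given without these libraries. The differences of the early-response and heat shock genes *Fos*, *Jun* and *Dnajb1* are not. Each library shared 2 to 6 cell barcodes with another.

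The members differed in where their RNA was found. In WT libraries *Adora1* was read mainly in principal-like cells and in an unnamed cluster, *Adora2a* in T and NK cell-like cells, and *Adora2b* in the macula densa-like, distal convoluted tubule-like and thick ascending limb-like cells. *Entpd1* was read in endothelial-like, macrophage-like and neutrophil-like cells, *Nt5e* in mural and mesangial-like cells, and *Ada* in peritubular endothelial-like cells. Levels are compared within a gene only, not between genes. *Slc29a1* and *Adk* were read in nearly all classes. The heat map of levels by class gives these patterns for both genotypes.

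The same classes were compared between genotypes with edgeR's quasi-likelihood test on the summed counts, in 18 classes or clusters with at least 20 cells in every library. Adjusted p-values are over all genes tested in a class (Benjamini-Hochberg). Over all of them, 1.40% of 126728 gene and class pairs were called at an adjusted p under 0.05. The 7 members other than *Adora1* passed the filter on low counts in 45 pairs, and 3 were called, or 6.67%, all higher in KO. These were *Adora2b* in thick ascending limb-like cells, *Nt5e* in type B intercalated-like cells and *Adk* in distal convoluted tubule-like cells. At an unadjusted p under 0.05 there were 15, and the median log2 fold change over the 45 was 0.079. Among all genes tested in a class, those under that p ran from 194 of 3910 in T and NK cell-like cells to 1941 of 10383 in podocyte-like cells. In 14 of the 45 pairs (31.1%) the 3 KO values did not overlap the 3 WT values, 9 above and 5 below, against 16.0% of all pairs. The members were picked with results known, so these shares are descriptions. Replicates are separate mice, 3 per genotype. The filter was passed in 2 of the 18 for *Adora1*, 1 for *Adora2a*, 3 for *Adora2b*, 5 for *Entpd1*, 4 for *Nt5e*, 16 for *Slc29a1*, 2 for *Ada* and 14 for *Adk*.

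*Adora1* (chromosome 1, 134199223 to 134235431, minus strand, GRCm38) encodes the A1 receptor. Its level in principal-like cells, the sodium- and water-reabsorbing cells of the collecting duct, was 16.4, 12.9 and 8.75 CPM in WT replicates 1, 2 and 3. In KO replicates 1, 2 and 3 it was 224, 176 and 110 CPM. The lowest KO library thus lay far above the highest WT library. In all, 115 UMIs were counted in WT and 759 in KO, and the log2 fold change was 3.76 (SE 0.25). In this class 2.33% of 10005 genes were called. Without the libraries holding *Xist* the log2 fold change was 3.53 (SE 0.29).

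The share of principal-like cells with at least 1 *Adora1* UMI was 6.96% ± 2.16 (SD, n = 3) in WT and 50.9% ± 8.52 in KO. KO cells of this class were deeper, with median counts of 5763 to 7433 UMIs against 4216 to 4758.5 UMIs. With every cell thinned to 1000 UMIs, which left out 225 WT and 99 KO cells, the shares were 1.81% ± 0.43 and 15.1% ± 5.69. In T and NK cell-like cells no *Adora1* was counted, so the share was 0% by definition in both genotypes, at a median depth of 2060 UMIs. In free RNA, taken from barcodes of 20 to 100 UMIs, *Adora1* was at 1.961, 0.675 and 1.19 in WT and at 5.92, 4.35 and 4.15 CPM in KO, below the level of principal-like cells in every library.

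Other readouts were taken in the same principal-like cells. The number of these cells was 401, 342 and 386 in WT and 172, 143 and 248 in KO. The summed level of 8 principal cell markers overlapped, at 17000 to 18990 CPM in WT and 13040 to 21810 CPM in KO. Of the 8, 4 were lower in every KO library than in every WT library, as were 11.4% of all genes tested in this class. The early-response gene *Fos* rose by a log2 fold change of 0.93 (adjusted p = 0.0217) and *Jun* by 0.89 (adjusted p = 0.00721), both edgeR. Both were picked as called genes from a control list of 10 dissociation and early-response genes. Over all classes 4 of the 179 pairs of that list (2.23%) were called, against 1.40% of all pairs. Of the 179, 47 were at an unadjusted edgeR p under 0.05. The median log2 fold change over the 179 was 0.214, against 0.079 over the 45 member pairs. The part of these readouts in the *Adora1* difference was not tested.

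Outside principal-like cells *Adora1* was low or varied between mice. In connecting tubule-like cells, the neighbouring segment, no *Adora1* UMI was counted in any of the 6 libraries, which allows at most 0.627 CPM in WT and 0.671 CPM in KO by counting error alone. Unnamed cluster 3, led by *Kcne1*, *Stc1*, *Trpv5* and *Scnn1g* and with markers of both connecting tubule and principal cells, held 1.63, 0.351 and 0.538 in WT and 15.8, 3.76 and 6.54 CPM in KO. The KO values there were above the WT values, at a far lower level than in principal-like cells. Free RNA was also higher in KO. All WT values of this cluster and that of KO replicate 2 lay below the free RNA of the same library, and KO replicates 1 and 3 lay above it. In type B intercalated-like cells, which secrete bicarbonate, the level was 3.26, 2.94 and 3.02 in WT and 6.29, 5.84 and 4.12 CPM in KO, and the log2 fold change was 0.82 (SE 0.31). These KO values were close to those of free RNA in the same libraries. Of the pair of clusters in that class, cluster 10 held 2.89, 1.92 and 1.59 CPM against 7.30, 9.80 and 5.38 CPM, and cluster 4 held 4.05, 5.43 and 5.47 CPM against 5.32, 4.16 and 2.21 CPM, so that the genotypes were apart in cluster 10 and overlapped in cluster 4.

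The highest WT level of *Adora1* was in unnamed cluster 15, of 38 to 75 cells per library, led by hemoglobin genes together with *Psca*, *Krt19* and *Aqp1*. Its best marker list was that of thin limb and parietal cells, with 6 markers raised, and it stayed unnamed because red blood cell markers conflicted. *Adora1* there read 64.2, 45.2 and 21.5 in WT and 23.7, 5.89 and 5.62 CPM in KO, and the genotypes overlapped. In type A intercalated-like cells, which secrete acid, the level was 6.20, 18.4 and 5.71 in WT and 8.71, 5.71 and 4.69 CPM in KO. In mural and mesangial-like cells, the class of the vessel wall on which A1 acts in tubuloglomerular feedback, only 1 UMI was counted in WT and 16 in KO (17.5, 3.36 and 27.5 CPM). In WT every library of unnamed cluster 15 lay above those of principal-like cells, next in order, whereas principal-like and type A intercalated-like cells overlapped.

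**Figure D1:**
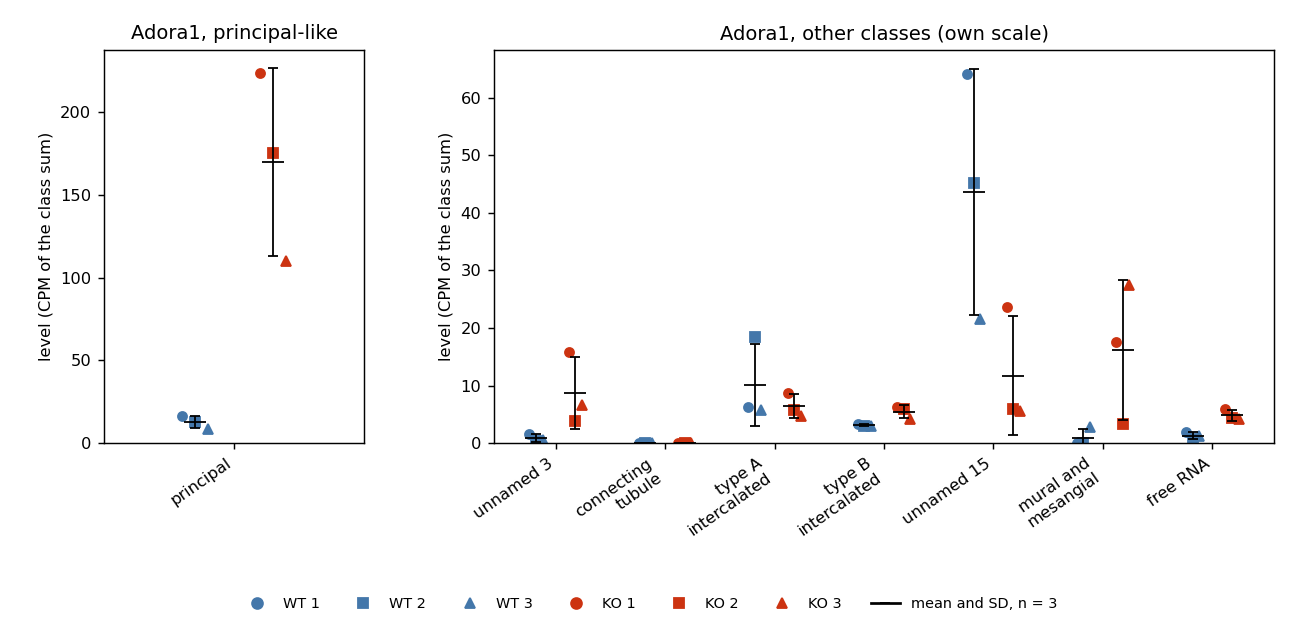
*Adora1* level in CPM in each of the 6 libraries, with principal-like cells on the left and other classes and free RNA on the right, each on its own scale; symbols are libraries (blue WT, red KO), and bars give the mean and SD, n = 3. In principal-like cells the KO libraries sit at 110 to 224 CPM and the WT libraries at 8.75 to 16.4 CPM, and in unnamed cluster 15 the genotypes overlap.

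*Adora2a* (chromosome 10, 75316877 to 75334784, plus strand) encodes a receptor that restrains lymphocytes and widens vessels. It was read in T and NK cell-like cells, at 29.1, 72.5 and 47.3 in WT and 29.5, 31.2 and 79.6 CPM in KO. The genotypes overlapped, with a log2 fold change of -0.35 (SE 0.48, edgeR adjusted p = 0.980). In glomerular endothelial-like cells the values were 6.16, 2.00 and 22.7 in WT and 2.83, 5.51 and 8.67 CPM in KO, too low for a test. WT libraries of T and NK cell-like cells lay above those of glomerular endothelial-like cells, and from there on down neighbouring classes overlapped.

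*Adora2b* (chromosome 11, 62248984 to 62266453, plus strand) encodes the receptor that responds at higher adenosine concentrations than the other receptors. In thick ascending limb-like cells, the salt-reabsorbing segment marked by *Umod* and *Slc12a1*, its level was 4.23, 6.404 and 2.27 in WT and 13.6, 14.6 and 8.44 CPM in KO. All KO libraries lay above all WT libraries, on 79 WT and 218 KO UMIs. The log2 fold change, at an edgeR adjusted p of 0.0134, was 1.51 (SE 0.31), in a class where 4.44% of 10747 genes were called. Without KO replicate 1 it was 1.45 with an adjusted p of 0.0532. Without both libraries holding *Xist* it was 1.86 (adjusted p = 0.0163).

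The class joined 3 clusters, and the KO mean of *Adora2b* was above the WT mean in each. In cluster 2, the deepest, it was 4.29, 7.43 and 2.09 CPM in WT against 15.9, 16.7 and 9.62 CPM in KO, and a fit of this cluster alone gave 1.62 (adjusted p = 0.0176). In cluster 20 the values were 1.97, 3.62 and 0 CPM against 11.6, 11.4 and 9.94 CPM. In cluster 23 they were 4.99, 3.64 and 3.63 CPM against 8.06, 7.77 and 4.02 CPM, and there KO replicate 3 fell among the WT values. The share of thick ascending limb-like cells with an *Adora2b* UMI was 4.01% ± 2.41 in WT and 9.70% ± 1.67 in KO, and 0.454% ± 0.235 and 1.15% ± 0.049 after thinning to 1000 UMIs. Podocyte-like cells gave no *Adora2b* UMI, so their share was 0% by definition. Median depth in the class varied from 2664.5 to 10697.5 UMIs in WT and from 4627 to 13682 UMIs in KO.

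Marker sums of the thick ascending limb were alike in the genotypes, at 49880 to 53240 CPM in WT and 49710 to 56830 CPM in KO. *Fos* rose there by 0.58 (adjusted p = 0.0371) and *Dnajb1*, a heat shock gene, by 0.66 (adjusted p = 0.0282), both on the log2 scale in edgeR. Both were picked as called genes from the control list of dissociation and early-response genes described above. Whether *Fos* and *Dnajb1* move with *Adora2b* was not tested. Free RNA held 1.31 to 1.35 CPM of *Adora2b* in WT and 2.58 to 4.75 CPM in KO, below the class level in every library. The call was not available among cells with at most 30% mitochondrial UMIs, where *Adora2b* did not pass the filter.

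Along the segments that follow, *Adora2b* stood at 3.52, 8.71 and 5.45 in WT and at 16.7, 17.5 and 10.8 CPM in KO distal convoluted tubule-like cells. The KO values were all above the WT values, with a log2 fold change of 1.35 (SE 0.32), and the adjusted p of 0.0535 missed the threshold. Of 15 alternatives that tested it, it passed in 5, namely without WT replicate 2 (adjusted p = 0.0273), with a block for the libraries holding *Xist* (0.0376), without a mitochondrial limit (0.00988), without doublet removal (0.0467) and without the filter on low counts (0.00107). In the other 10 the adjusted p ranged from 0.0535 to 0.308, among them DESeq2 (0.0654), the replicate block (0.0900) and the libraries without *Xist* (0.118), and with at most 30% mitochondrial UMIs the gene did not pass the filter. In macula densa-like cells, the salt sensor of tubuloglomerular feedback, the values were 8.84, 6.19 and 13.8 in WT and 21.6, 12.1 and 17.997 CPM in KO, and the genotypes overlapped (log2 fold change 0.93, SE 0.41, adjusted p = 0.324). Without doublet removal the WT mean there was 5.93 CPM in place of 9.60 CPM. The cells were clustered anew in that run, and the macula densa-like class held 1214 cells in place of 547. Connecting tubule-like cells held at most 0.861 CPM in any library. Principal-like cells held 2 WT and 6 KO UMIs in all. No *Adora2b* UMI was counted in T and NK cell-like, endothelial-like or podocyte-like cells. The WT levels of macula densa-like, distal convoluted tubule-like and thick ascending limb-like cells overlapped each other.

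**Figure D2:**
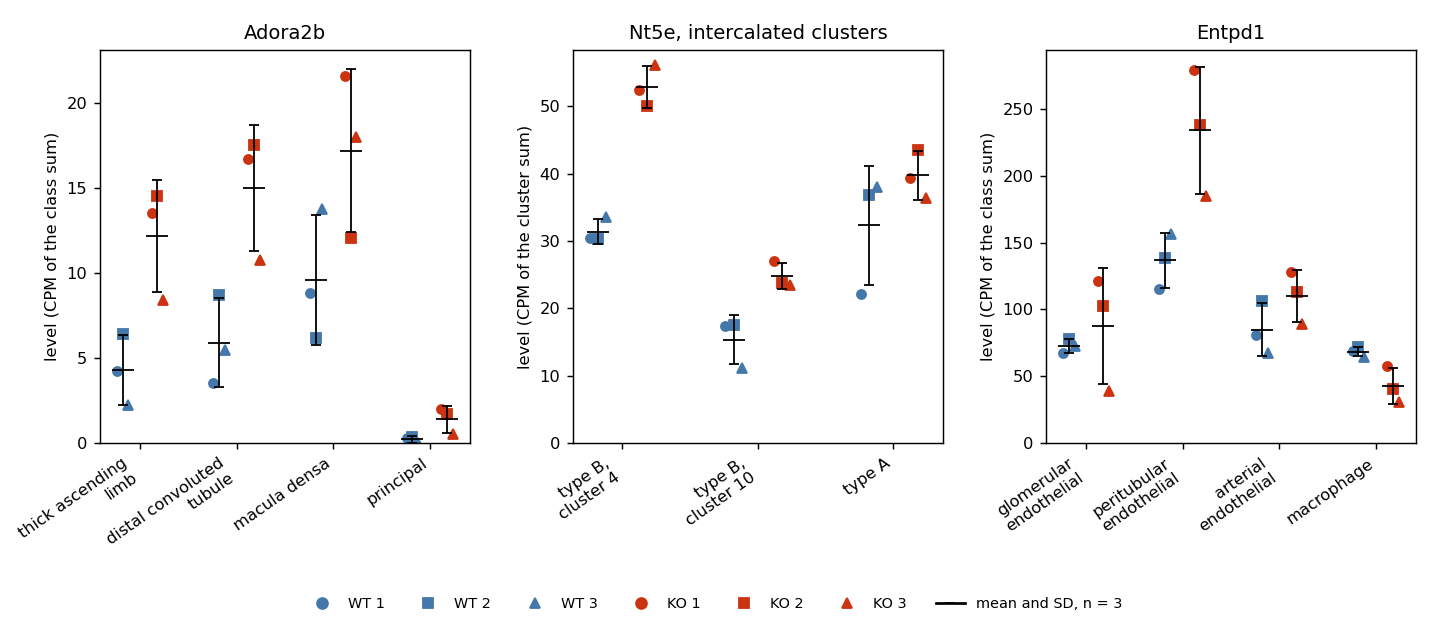
Level in CPM in each of the 6 libraries for *Adora2b* in 4 classes, *Nt5e* in the clusters of intercalated-like cells and *Entpd1* in 4 classes; symbols are libraries (blue WT, red KO), and bars give the mean and SD, n = 3. *Adora2b* in thick ascending limb-like cells sits at 2.27 to 6.404 CPM in WT and 8.44 to 14.6 CPM in KO.

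*Entpd1* (chromosome 19, 40612366 to 40741602, plus strand) encodes CD39, the enzyme of endothelial and immune cell surfaces that removes ATP and ADP. Genes on the same strand lie within it (*Gm16027*, *Gm8783* and *AC166063.1*), so that reads could be split among them. In peritubular endothelial-like cells its level was 116, 138 and 156 in WT and 280, 238 and 185 CPM in KO. The KO values lay above the WT values, and the log2 fold change of 0.74 (SE 0.22) did not pass the test (edgeR adjusted p = 0.211). In arterial endothelial-like cells the values were 80.8, 106 and 67.4 CPM against 128, 113 and 89.2 CPM (log2 fold change 0.45, adjusted p = 0.475). In glomerular endothelial-like cells they were 67.8, 78.0 and 72.6 CPM against 122, 103 and 39.0 CPM, with KO replicate 3 the lowest of the 6.

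In macrophage-like cells the order of *Entpd1* was the other way round, with 68.8, 71.7 and 64.7 in WT and 57.7, 40.1 and 30.7 CPM in KO. The log2 fold change, at an edgeR adjusted p of 0.562, was -0.51 (SE 0.29). Mural and mesangial-like cells held 63.4, 34.1 and 52.6 in WT and 64.1, 67.3 and 45.8 CPM in KO, which overlapped. No UMI of *Entpd1* was counted in principal-like, connecting tubule-like or type B intercalated-like cells. Its level in free RNA was 1.797, 2.03 and 2.20 in WT and 13.2, 5.84 and 4.15 CPM in KO. In WT, peritubular endothelial-like cells lay above arterial endothelial-like cells in every library, and arterial, glomerular endothelial-like and macrophage-like cells overlapped in that order.

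*Nt5e* (chromosome 9, 88327197 to 88372092, plus strand) encodes CD73, which makes adenosine from AMP. It was highest in mural and mesangial-like cells, at 562, 465 and 429 in WT and 344, 397 and 422 CPM in KO. The KO values were all below the WT values, by a margin of a few CPM at the nearest libraries, and the log2 fold change, at an edgeR adjusted p of 0.755, was -0.28 (SE 0.18). Within this class the RNA was in cluster 22, at 804, 588 and 634 in WT and 704, 640 and 545 CPM in KO, where the genotypes overlapped. In cluster 25, whose genes include *Acta2* and *Ren1*, no *Nt5e* UMI was counted in any library. Cluster 25 made up 34.5, 20.7 and 31.1% of the class in WT and 50.5, 31.1 and 25.7% in KO. The part of this make-up in the *Nt5e* difference of the class was not tested. The share of mural and mesangial-like cells with an *Nt5e* UMI was 33.1% ± 2.66 in WT and 27.2% ± 4.61 in KO at 1000 UMIs per cell, against 0% in thick ascending limb-like cells.

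In type B intercalated-like cells *Nt5e* rose. Its level was 21.5, 21.3 and 19.4 in WT and 39.9, 42.2 and 36.5 CPM in KO, with 270 and 447 UMIs. The values were close within each genotype and did not overlap between them. The log2 fold change, at an edgeR adjusted p of 0.0113, was 0.93 (SE 0.14), and 0.800% of 10371 genes were called in this class. Without the libraries holding *Xist* it was 0.96 (adjusted p = 0.219), without WT replicate 2 it was 0.94 (adjusted p = 0.0535), without WT replicate 3 it was 0.89 (adjusted p = 0.0528), and with the replicate number as a block it was 0.93 (adjusted p = 0.0658). With at most 30% mitochondrial UMIs it was 0.89 (adjusted p = 0.572).

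The make-up of the type B intercalated-like class differed between genotypes. Cluster 4, the deeper cluster, held 30.3, 25.1 and 34.0% of the class in WT and 55.4, 78.8 and 36.2% in KO. The KO values of *Nt5e* lay above the WT values within each cluster. In cluster 4 it was 30.4, 30.2 and 33.5 in WT and 52.4, 49.96 and 56.1 CPM in KO, and the log2 fold change was 0.80 in that cluster alone (edgeR adjusted p = 0.149). In cluster 10 it was 17.3, 17.6 and 11.1 CPM against 27.0, 23.8 and 23.5 CPM (0.66, adjusted p = 0.295). The genotypes did not overlap in either cluster, and neither cluster alone passed the test. Principal cell markers summed to 3646 to 4820 CPM in the WT and 2189 to 2963 CPM in the KO libraries of this class. Of these 8 markers, 6 were lower in every KO library, as were 7.53% of all genes tested in the class. Connecting tubule markers summed to 17180 to 22070 CPM in WT and 6188 to 15100 CPM in KO. The part of these markers in the *Nt5e* difference was not tested. The share of cells with an *Nt5e* UMI was 15.3% ± 1.53 in WT and 27.8% ± 5.71 in KO, and 2.46% ± 0.51 and 3.91% ± 1.03 after thinning to 1000 UMIs.

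In type A intercalated-like cells the level was 22.2, 36.8 and 38.0 in WT and 39.4, 43.5 and 36.3 CPM in KO (difference of 0.35 on the log2 scale, edgeR adjusted p = 0.783). In glomerular endothelial-like cells it was 6.16, 16.0 and 24.96 in WT and 53.7, 34.9 and 60.7 CPM in KO, where the genotypes did not overlap and the log2 fold change of 1.43 (SE 0.41) did not pass the test (adjusted p = 0.333). T and NK cell-like cells held 29.1, 26.9 and 47.3 CPM against 33.7, 24.2 and 0 CPM. Proximal tubule-like cells, a segment known for CD73, held 61.7, 20.8 and 103 in WT and 53.2, 89.5 and 11.3 CPM in KO, from as few as 10 cells in a library, and were not tested. Without the mitochondrial limit this class held 27 to 946 cells per library and *Nt5e* was at 43.6, 9.62 and 30.7 in WT and 13.6, 10.5 and 5.56 CPM in KO, which overlapped. The CPM total includes mitochondrial UMIs, at a median share of 83.0% there and 33.4% with the limit. The values with and without the limit are thus not on the same footing. Free RNA held 7.52 to 11.3 CPM of *Nt5e* in all 6 libraries. Below mural and mesangial-like cells, the WT values of T and NK cell-like and type A intercalated-like cells overlapped.

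*Slc29a1* (chromosome 17, 45585200 to 45599606, minus strand, with *Gm17080* on the other strand) encodes ENT1, through which adenosine crosses the cell membrane. It was highest in macula densa-like cells, at 167, 171 and 211 in WT and 134, 190 and 203 CPM in KO, which overlapped (log2 fold change 0.0043, SE 0.17, edgeR adjusted p = 0.996). Without doublet removal the cells were clustered anew, and the macula densa-like class held 1214 cells in place of 547. Its WT mean was then 105 CPM, below that of connecting tubule-like cells (137 CPM), so the order differed between these runs. The part of the removed cells and of the changed class was not tested. In connecting tubule-like cells it was 109, 156 and 138 in WT and 148, 195 and 110 CPM in KO. None of its 16 tests was called, at adjusted p-values of 0.0603 or more. In free RNA it stood at 41.0 to 50.6 CPM, so that the levels of podocyte-like cells (41.3 to 45.4 CPM) lay within the range of free RNA. All type A intercalated-like values, the WT thick ascending limb-like values and the KO type B intercalated-like values lay below that range. The KO thick ascending limb-like, WT type B intercalated-like and WT distal convoluted tubule-like values overlapped it.

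The sign of the *Slc29a1* difference varied along the nephron and collecting duct. In thick ascending limb-like cells it was 32.9, 37.3 and 39.1 in WT and 49.6, 51.4 and 43.5 CPM in KO, and the log2 fold change, at an edgeR adjusted p of 0.0603, was 0.40 (SE 0.11). Of the 3 clusters of this class, cluster 23 alone passed the test (0.74, adjusted p = 0.0345), with 42.4, 58.3 and 61.0 CPM against 78.8, 110 and 82.7 CPM, and the genotypes overlapped in clusters 2 and 20. The class also passed at Leiden resolution 1.0 (0.0442) and without the filter on low counts (0.0347). In distal convoluted tubule-like cells it was 45.8, 43.8 and 55.5 CPM against 70.6, 91.6 and 59.6 CPM (0.63, SE 0.16, adjusted p = 0.0756), and this passed without a mitochondrial limit (0.0415) and without the filter (0.00767). The KO values were above the WT values in both segments. In type A intercalated-like cells they were below, at 26.6, 33.1 and 20.9 in WT and 16.6, 12.1 and 18.8 CPM in KO (-0.74, SE 0.27, adjusted p = 0.422). They were also below in type B intercalated-like cells, at 49.8, 59.0 and 41.5 CPM against 40.8, 22.96 and 35.3 CPM (-0.57, SE 0.19, adjusted p = 0.283), which passed without the filter (0.0226). In principal-like cells the genotypes overlapped, with a log2 fold change of 0.066 (SE 0.20, adjusted p = 0.936).

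*Ada* (chromosome 2, 163726584 to 163750239, minus strand) encodes the enzyme that deaminates adenosine to inosine. It was read in peritubular endothelial-like cells, at 24.8, 92.1 and 52.0 in WT and 85.3, 49.9 and 74.5 CPM in KO, where the 3 KO values lay within the range of the WT values (log2 fold change 0.38, SE 0.38, edgeR adjusted p = 0.861). Glomerular endothelial-like cells held 12.3, 26.0 and 22.7 CPM against 34.9, 18.4 and 30.3 CPM (0.34, SE 0.39, adjusted p = 0.975). In macrophage-like cells *Ada* was at 17.9, 27.6 and 29.4 in WT and 8.01, 13.4 and 4.39 CPM in KO. The KO values there were all below the WT values, and the gene did not pass the filter on low counts.

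*Adk* (chromosome 14, 21052574 to 21448569, plus strand, with *Gm26372* inside it) encodes adenosine kinase, which returns adenosine to AMP inside the cell. In distal convoluted tubule-like cells it rose from 86.7, 83.4 and 92.7 in WT to 151, 122.7 and 131 CPM in KO. The genotypes did not overlap, on 832 WT and 636 KO UMIs. The log2 fold change, at an edgeR adjusted p of 0.0138, was 0.65 (SE 0.12), and 1.44% of 9392 genes were called in this class. Without the libraries holding *Xist* it was 0.53 (adjusted p = 0.195). It was 0.64 without WT replicate 1 (0.0559), 0.61 without WT replicate 2 (0.0584) and 0.57 without KO replicate 1 (0.109). With at most 30% mitochondrial UMIs it was 0.84 (adjusted p = 0.256). Markers moved in the same cells, with sums of distal convoluted tubule markers of 3901 to 4356 CPM in WT and 4735 to 4926 CPM in KO, and of connecting tubule markers of 5167 to 5566 CPM and 6990 to 7951 CPM. Their part in the *Adk* difference was not tested.

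In the other classes *Adk* showed no called difference. In thick ascending limb-like cells, the preceding segment, it was 40.6, 49.4 and 45.4 in WT and 43.0, 50.02 and 46.2 CPM in KO, and the log2 fold change, at an edgeR adjusted p of 0.883, was 0.048 (SE 0.11). In connecting tubule-like cells, the following segment, it was 61.7, 88.6 and 76.2 CPM against 112, 90.8 and 74.4 CPM (0.34, SE 0.17, adjusted p = 0.505). The genotypes overlapped in both. In unnamed cluster 13, with markers of connecting and distal convoluted tubule, the mean *Adk* level was 85.6 CPM (SD 8.26) in WT and 122 CPM (SD 35.7) in KO. In macula densa-like cells the mean was 41.8 CPM (SD 4.68) in WT and 52.5 CPM (SD 6.54) in KO. In glomerular endothelial-like cells it was 30.8, 70.0 and 49.9 CPM against 27.3, 40.4 and 17.3 CPM (-0.87, SE 0.35, adjusted p = 0.645). Free RNA held 36.6 to 48.3 CPM of *Adk*, which overlapped the 32.999 to 38.5 CPM of podocyte-like cells and the values of thick ascending limb-like cells. Mural and mesangial-like cells had the highest WT level among tested classes, at 88.7, 81.6 and 102 CPM, which overlapped distal convoluted tubule-like cells.

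**Figure D3:**
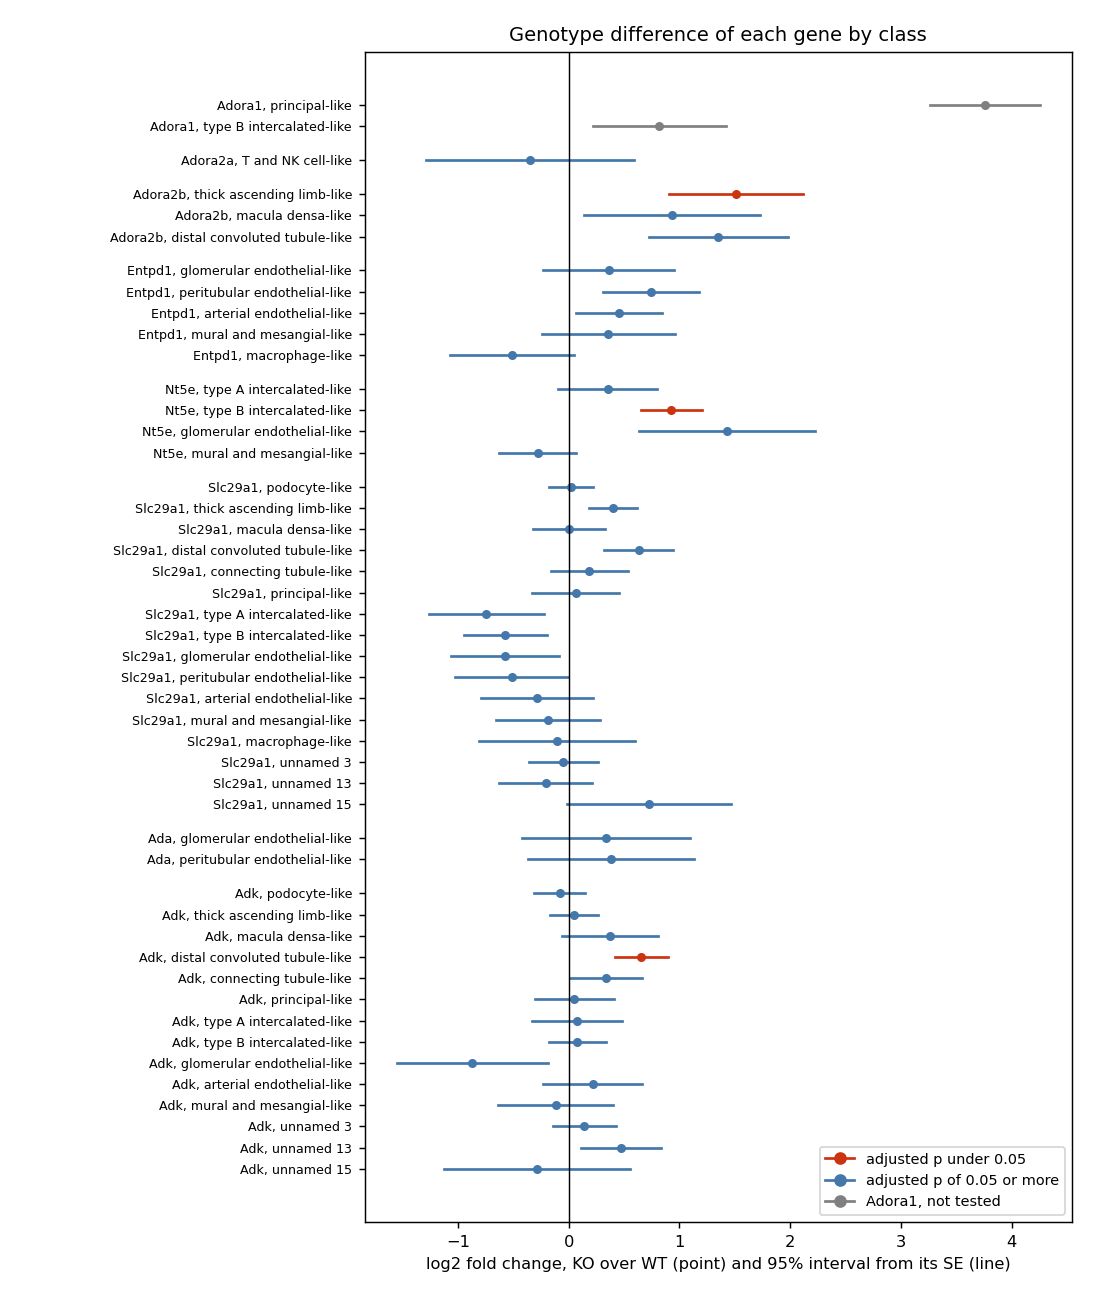
Log2 fold change, KO over WT, of each gene and class that passed the filter on low counts, with its 95% interval from the SE; red marks an adjusted p under 0.05 and grey marks *Adora1*, which was not tested. *Adora2b* in thick ascending limb-like cells (1.51), *Nt5e* in type B intercalated-like cells (0.93) and *Adk* in distal convoluted tubule-like cells (0.65) are the 3 called.

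Whether the genotype difference of a member was unlike in different segments was tested in edgeR by the interaction of class and genotype, with mice as blocks. *Adora1* was left out of this test. Between principal-like and connecting tubule-like cells 1.44% of 9790 genes were called, and between principal-like and thick ascending limb-like cells 2.47% of 11330. Of the 2 and 4 other members tested in these comparisons, none was called. *Adora2b* had a difference between principal-like and thick ascending limb-like cells of -0.98 on the log2 scale (SE 0.91, adjusted p = 0.722), and *Nt5e* of -0.97 (SE 1.29, adjusted p = 0.824), where few UMIs were counted in one of the classes. *Slc29a1* had 0.36 (SE 0.17, unadjusted p = 0.0522, adjusted p = 0.357), and *Adk* had -0.0039 (SE 0.17). Between principal-like and connecting tubule-like cells *Adk* had 0.31 (SE 0.22, adjusted p = 0.715) and *Slc29a1* 0.12 (SE 0.17, adjusted p = 0.889).

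The wider pathway was read from 39 further genes in 5 lists. Of these, 30 passed the filter somewhere, in 289 gene and class pairs, and 6 pairs (2.08%) were called, 2 higher and 4 lower in KO. Over all pairs 1.40% were called. At an unadjusted p under 0.05 there were 39 of the 289, and the range over all genes by class is given above. Among other ectonucleotidases, *Alpl*, the tissue-nonspecific alkaline phosphatase that also degrades AMP, fell in arterial endothelial-like cells from 218, 272 and 221 CPM to 82.7, 107 and 105 CPM (log2 fold change -1.22, SE 0.18, edgeR adjusted p = 0.0078). In peritubular endothelial-like cells *Alpl* fell from 136, 184 and 104 CPM to 54.5, 63.5 and 38.6 CPM (-1.43, SE 0.27, adjusted p = 0.038). These were the 2 called of 27 pairs in that list, and the KO values lay below the WT values in both classes. Without the libraries holding *Xist* the log2 fold changes of *Alpl* were -0.97 (adjusted p = 0.0736) and -1.23 (adjusted p = 0.195).

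Of the purine enzymes, 2 of 141 pairs were called. *Dpp4*, the surface protein that binds adenosine deaminase in humans, rose in principal-like cells from 15.5, 16.9 and 16.8 CPM to 25.8, 32.5 and 30.1 CPM (0.88, SE 0.19, edgeR adjusted p = 0.0324). *Pnp*, which splits inosine, rose in thick ascending limb-like cells from 68.2, 81.0 and 73.5 CPM to 115, 85.8 and 105 CPM (0.46, SE 0.11, adjusted p = 0.0393). Of the list holding the A3 receptor and receptor signaling, 1 of 85 pairs was called. *Gnai1*, an inhibitory G protein subunit to which A1 couples, fell in distal convoluted tubule-like cells from 48.3, 47.2 and 43.6 CPM to 32.99, 26.3 and 24.0 CPM (-0.68, SE 0.16, adjusted p = 0.0456). Of ATP release and P2 receptor genes, 1 of 25 pairs was called, *P2ry1*, an ADP receptor, in unnamed cluster 3, where it fell from 15.1, 10.2 and 5.92 CPM to 2.37, 1.502 and 1.31 CPM (-2.49, SE 0.46, adjusted p = 0.0075). Without the libraries holding *Xist*, none of these 4 was called. The log2 fold change there was 1.00 for *Dpp4* (adjusted p = 0.128), 0.45 for *Pnp* (0.145), -0.83 for *Gnai1* (0.133) and -2.85 for *P2ry1* (0.0881). None of the 11 pairs of other nucleoside transporters was called, nor was any at an unadjusted p under 0.05.

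Genes whose WT level over the 18 classes or clusters was most like that of each member were found by Pearson's r of log2(mean CPM + 1), among genes at 10 CPM or more in some class. The classes share libraries and depth, and the r values are descriptions. For *Adora1* they were *Cldn23* (0.91), *Fxyd3* (0.87) and *Pgm5* (0.86). For *Adora2b* they were *Dpyd* (0.86), *Mt3* (0.86) and *Kcnn2* (0.85), and for *Nt5e* they were *Camk2a* (0.85), *Ephx3* (0.84) and *Mical2* (0.84). *Adora2b* reached 10 CPM only in unnamed cluster 21, at a WT mean of 11.8 CPM (SD 20.4, libraries from 0 to 35.4 CPM). *Entpd1* was most like *Ifi203* (0.98), *Abi3* (0.98) and *Ifi208* (0.97), and *Adora2a* like *Slc2a3* (0.93). *Ada* was most like *Naip2* (0.92) and *Adk* like *Mrpl41* (0.91). The value for *Slc29a1* was the lowest of the 8, 0.75 with *Patz1*.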

How the data were processed

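Renal cortex cells of 3 WT and 3 *Prdm16* KO mice had been captured on the BD Rhapsody system, and groups and replicate numbers were read from the sample titles. The authors deposited raw UMI counts per gene and barcode, not normalised and with empty barcodes included, made with the BD Rhapsody WTA pipeline on mm10 with a GENCODE annotation. The submitters' processing notes also name Scanpy 1.8. A library lists detected genes only, so a missing gene was taken as 0. Coordinates are from GENCODE on GRCm38, counted from 1.

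Barcodes were filtered with the UMI and gene bounds of the study and a limit of 50% mitochondrial UMIs set here, since the study chose its limit by eye. Scrublet's automatic threshold marked 0.0899 to 0.372% of cells, too few to have worked, so the 6% with the highest scores were removed in each library. Cells were scaled to 10000 counts, reduced to 2000 variable genes and 30 components, joined to 15 neighbours and clustered with Leiden at resolution 2.0 (scanpy 1.11.5). A cluster was named from at least 3 raised markers and left unnamed where another list conflicted, a scoring rule set after the clusters were seen. Names mean resemblance only. Some named clusters were led in part by stress or immune genes (*Lif* in principal-like, *Nupr1* in podocyte-like, *Ccl4*, *Ccl3* and *Tnf* in macrophage-like cells).

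Counts were summed per library and class and tested with edgeR 4.0.16 (TMM, filterByExpr at its minimum count of 10, quasi-likelihood F test, two-sided, R 4.3.3), with Benjamini-Hochberg adjustment over all genes of a class. DESeq2 1.42.0, other size factors, filters, cell limits and clusterings, each library left out and blocks for replicate number or *Xist* were alternatives. Proximal tubule-like cells, neutrophil-like cells and unnamed cluster 16 had under 20 cells in a library and were not tested. Zero counts were given an upper limit of 3 counts. These limits cover counting error only. The scripts were tested on simulated data. The members, the gene lists and the genes named (members, called pathway genes and the genes most like each member) were chosen with earlier results of these data known. Depth ranged from 22965576 to 35466580 UMIs per library.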

Additional observations from a re-analysis of the deposited data

Results flagged for a closer look

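For 3 members the KO values lay above all WT values in some classes and below all WT values in others. Whether these differences differ from each other was not tested, and groups of 3 libraries were not searched for outlying samples. The direction of *Entpd1* was upward in peritubular endothelial-like cells, with a log2 fold change of 0.74, and downward in macrophage-like cells, with -0.51. *Nt5e* stood higher in every KO library in glomerular endothelial-like cells (1.43) and type B intercalated-like cells (0.93) and lower in every KO library in mural and mesangial-like cells (-0.28). *Slc29a1* stood higher in every KO library in distal convoluted tubule-like cells (0.63) and thick ascending limb-like cells (0.40), and lower in glomerular endothelial-like cells (-0.57), type A intercalated-like cells (-0.74) and type B intercalated-like cells (-0.57). Of these, *Nt5e* in type B intercalated-like cells passed the test within its class (edgeR adjusted p = 0.0113), and the others did not. The *Slc29a1* values of intercalated-like and thick ascending limb-like cells lay below the free RNA range or overlapped it. So did the WT values of distal convoluted tubule-like cells.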

How the results depend on the processing

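No direction was reversed under any of the alternatives run for the values below. The 3 member calls became 8 with no filter on low counts, 5 with no mitochondrial limit and 1 with only the libraries without *Xist*. They became 0 with at most 30% mitochondrial UMIs, where 33 tests remained in 13 classes and 8 were at an unadjusted p under 0.05 in edgeR. At that limit, all genes under this p ran from 198 of 3812 in T and NK cell-like cells to 1908 of 10296 in podocyte-like cells. The 5 added without the filter were *Adora2b* and *Slc29a1* in distal convoluted tubule-like cells, *Slc29a1* in thick ascending limb-like and type B intercalated-like cells and *Nt5e* in glomerular endothelial-like cells. Leaving out 1 library each gave 1 to 3 calls, and KO replicate 1 was the library without which 1 was left. The 6 pathway calls became 14 with no filter, 2 with at most 30% mitochondrial UMIs and 0 with only the libraries without *Xist*, and leaving out 1 library each gave 1 to 4. Without the *Xist* libraries 26 were at an unadjusted p under 0.05. All genes under it there ran from 118 of 4067 in T and NK cell-like cells to 1371 of 10858 in thick ascending limb-like cells. DESeq2 gave 3 and 4 calls. *Adora1* in principal-like cells kept a log2 fold change of 3.53 to 3.97 under all 16 alternatives.

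Among single members, the adjusted p of *Adk* in distal convoluted tubule-like cells ranged from 0.000496 to 0.256, of *Adora2b* in thick ascending limb-like cells from 3.01e-09 to 0.0532 and of *Nt5e* in type B intercalated-like cells from 2.86e-05 to 0.572, each in edgeR or DESeq2, with the highest values of *Adk* and *Nt5e* at the 30% mitochondrial limit. The cause was not tested. The WT mean of *Entpd1* in peritubular endothelial-like cells was 116 CPM without a mitochondrial limit. That of *Slc29a1* in macula densa-like cells was 258 CPM at the 30% limit and 105 CPM without doublet removal. In the run without doublet removal the macula densa-like class held 1214 cells in place of 547. Thinned to 500 UMIs, the share of principal-like cells with an *Adora1* UMI was 0.949% in WT and 7.65% in KO. The runs without doublet removal and with each cluster alone were chosen after seeing the data. The planned doublet alternative used Scrublet's automatic threshold only in libraries where it marks at least 0.5% of cells. No library reached that at the 50% mitochondrial limit, so this alternative was identical to the setting reported and was not run separately. The interaction with connecting tubule-like cells could not be fitted at the 30% limit.

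The sample titles do not say whether replicate numbers pair the mice, and the correlations did not settle it. Over all cells the deviations of libraries with the same number correlated at 0.266, -0.0555 and 0.288. The values of replicates 1 and 3 were the highest among all WT and KO pairs, whereas WT replicate 2 correlated best with KO replicate 1 (0.174). With the replicate block, 2 member and 4 pathway pairs were called, and *Adora1* in principal-like cells had a log2 fold change of 3.77. Counts of a few UMIs per class limit *Adora1*, *Adora2a* and *Adora2b* outside the classes named.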

Other observations

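Some values belonged to classes too small for a test. *Entpd1* was read in neutrophil-like cells, at 660 CPM in WT replicate 2 and 500, 228 and 280 CPM in KO replicates 1, 2 and 3, with a UMI in 61.3% of 31 WT cells and in 64.2, 59.0 and 45.8% of 229, 61 and 48 KO cells. WT replicate 1 had 0 such cells and WT replicate 3 had 1. In these libraries the number of neutrophil-like cells was thus higher in KO, and this class holds an *Entpd1* level above that of peritubular endothelial-like cells in 3 of the 4 libraries with more than 1 cell.

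*Adk* was read in proximal tubule-like cells, at 194, 179 and 160 in WT and 53.2, 166 and 260 CPM in KO, from 36, 96 and 188 WT and 10, 36 and 17 KO cells. The WT values lay above those of mural and mesangial-like cells, and the KO values were spread over the whole range. The number of cells in this class depended on the 50% mitochondrial limit set here. Without it the class held 59, 946 and 931 WT and 27, 615 and 354 KO cells. *Adk* was then at 149, 63.0 and 57.5 in WT and 54.5, 28.2 and 76.7 CPM in KO, where the genotypes overlapped. The median share of mitochondrial UMIs was 83.0% there and 33.4% with the limit. The CPM total includes these UMIs, so the values with and without the limit are not on the same footing.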
